A study of Mus musculus with 9 samples.

Results

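The genes described here mark or regulate the corticotropes and melanotropes of the mouse pituitary. They are Pomc, Tbx19, Pax7, Neurod1, Crhr1 and Avpr1b, chosen for their known roles in these cells and matched by symbol. These are 6 of the 55450 annotated genes, and each was among the 19371 genes tested. RNA was sequenced from 7 Rathke's pouches, the embryonic epithelium that forms the anterior and intermediate lobes, and from 2 adult pituitaries without their posterior lobe. Each library came from a single animal. The comparison asks how these genes differ between the forming and the mature gland.

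Embryos and adults were of the same mixed strain, 129Sv/c57BL6J. The embryos were at embryonic day 13.5 and carried the Sox2 Egfp/+ genotype. The Egfp allele reports the progenitor gene Sox2, and no library of embryos without it was compared here. The study does not state whether the adults carried it. If they did not, genotype and stage cannot be told apart in any comparison below. The adults were at postnatal week 8. Both sexes were present at both stages, but the sex of each animal is not given in the sources used here, so sex was not part of any test. Read pairs counted on genes numbered 16738863 to 28537311 in the embryos, with a median of 24687556, and 36421545 and 31191117 in adults 1 and 2. Levels are given as CPM, which are counts brought to the same library size. A count of 3 corresponds to 0.0963 to 0.220 CPM in the embryos and to 0.0727 and 0.0843 CPM in adults 1 and 2, and such floors cover counting error only.

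Embryos 1 and 4 stood apart from the other embryos. Genes received only 59.7% and 62.8% of their read pairs, whereas every other embryo had at least 73.9%. Globin genes of red blood cells took 14.4% and 16.7% of their gene counts, against 0.765% to 2.04% in the others. The fold changes of the members, the ratios and the correlations were therefore also computed without both, and the ranges, means and SDs below include them.

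As background, corticotropes of the anterior lobe and melanotropes of the intermediate lobe both transcribe Pomc, whose precursor protein is cut into ACTH in the former and into alpha-MSH and beta-endorphin in the latter. TBX19 (also called TPIT) drives the differentiation of both cell types, NEUROD1 acts with it in early corticotropes, and PAX7 directs cells to the melanotrope fate. Mature corticotropes release ACTH in response to hypothalamic CRH and vasopressin, which act through the receptors encoded by Crhr1 and Avpr1b, and glucocorticoids from the adrenal gland restrain them.

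Among the 6 genes, 5 were called, each higher in the adult, and the fitted fold change of the other was also positive. A call required an adjusted p below 0.05 in edgeR's quasi-likelihood test across all genes and a fold change above 4. Of all genes tested, 14.6% were called higher in the adult and 11.3% higher in the embryo. Neurod1 was the member that was not called. The share of all genes tested whose embryo and adult libraries do not overlap was not computed. Statements on overlap for named genes are therefore descriptions without a background. In bulk tissue, fewer cells of a type and less RNA per cell cannot be told apart, and this holds for every difference given here.

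**Figure D1:**
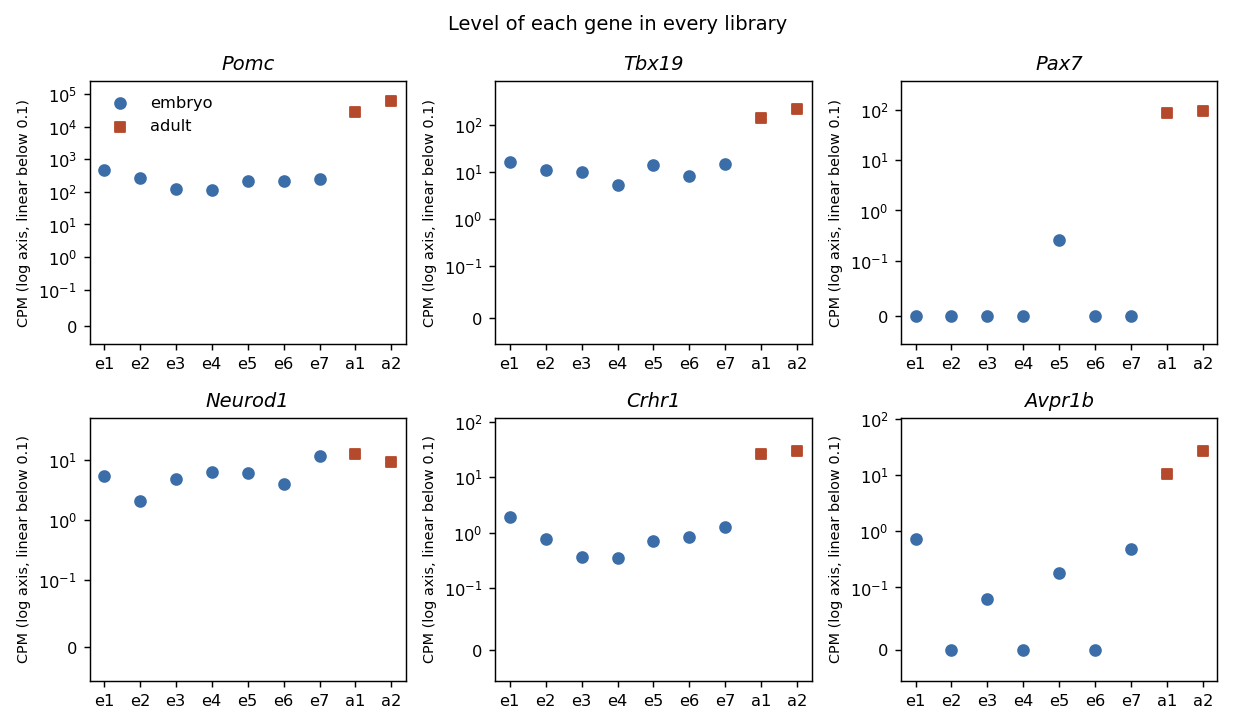
Level of each of the 6 genes in CPM (vertical axis, logarithmic and linear below 0.1) in embryos 1 to 7 (e1 to e7, circles) and adults 1 and 2 (a1 and a2, squares), each point being 1 library. Adult and embryo libraries do not overlap for 5 genes, whereas for Neurod1 embryo 7 lies between the adults. The share of all genes tested without overlap was not computed.

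Pomc (ENSMUSG00000020660.6, protein coding, GRCm38 chr12:3954951-3960642, plus strand) encodes the hormone precursor. Its level in the embryos was 117 CPM at the lowest, 216 CPM at the median and 451 CPM at the highest. Adults 1 and 2 had 27015 and 61936 CPM. Embryo 1 was the highest embryo and embryos 3 and 4 the lowest, and no embryo came near either adult. The embryo mean was 233 ± 112 CPM (SD, n = 7). With 44475 ± 24693 CPM (SD, n = 2), the adult mean was 191-fold higher. The fitted log2 fold change, adult over embryo, was 7.58 (SE 0.48, edgeR adjusted p = 1.0e-07). It was 6.87 without adult 2, with the remaining adult assumed to vary like the embryos, and 8.79 after correcting each library for GC content and transcript length. It stayed called in both.

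Pomc thus took a measurable share of the adult libraries. It held 3.06% of the gene counts of adult 1 (95% Wilson interval 3.05 to 3.07%) and 7.06% of those of adult 2 (7.05 to 7.07%). These intervals cover counting error only. Per kilobase of annotated exon, a scale on which genes can be compared, its mean level ranked 2 among all tested genes in the adults and 337 in the embryos. The transcript was therefore among the more abundant ones already in the pouch.

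Tbx19 (ENSMUSG00000026572.11, GRCm38 chr1:165137855-165160773, minus strand), the T-box factor of both POMC lineages, had 5.36, 11.2 and 16.4 CPM in the lowest, median and highest embryo. It had 143 and 214 CPM in adults 1 and 2. The groups were apart, and the extremes among the embryos were embryo 4 and embryo 1, as for Pomc. The embryo mean was 11.4 ± 3.88 CPM (SD, n = 7). The adult mean, 178 ± 50.6 CPM (SD, n = 2), was 15.6-fold higher, with a log2 fold change of 3.96 (SE 0.32, edgeR adjusted p = 6.7e-07).

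Of the 3 pairs of genes compared across the embryos below, Pomc and Tbx19 had the highest correlation with all 7 embryos included. Without embryos 1 and 4 it was Neurod1 and Tbx19 (r of 0.60, against 0.43 for Pomc and Tbx19). The 250 bases before the annotated starts of Pomc and Tbx19 are shown, from RefSeq windows on GRCm38.p6. Such windows were matched for 5 of the 6 members. The Pomc window lies at chr12:3954695-3954944 on the plus strand and the Tbx19 window at chr1:165160774-165161023 on the minus strand, each outside the annotated exons of its gene. Both are written 5′ to 3′, and capitals mark every match to the motifs searched on both strands.
Pomc: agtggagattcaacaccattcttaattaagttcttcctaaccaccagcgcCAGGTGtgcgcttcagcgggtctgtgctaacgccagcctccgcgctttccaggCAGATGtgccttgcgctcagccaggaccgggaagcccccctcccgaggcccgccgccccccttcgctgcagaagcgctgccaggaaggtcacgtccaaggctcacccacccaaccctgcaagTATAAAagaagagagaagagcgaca
Tbx19: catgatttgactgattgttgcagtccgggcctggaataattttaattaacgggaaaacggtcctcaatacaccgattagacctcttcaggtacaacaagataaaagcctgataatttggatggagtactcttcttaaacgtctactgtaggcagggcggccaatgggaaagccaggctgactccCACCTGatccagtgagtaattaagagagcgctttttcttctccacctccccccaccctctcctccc

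The motifs were CANNTG (the E-box of basic helix-loop-helix factors such as NEUROD1), TCACAC (the core of a T-box site), TAATCC (a bicoid-type homeodomain site, as PITX factors use), AAAGGTCA (the NGFI-B response element of NR4A factors) and TATAAA (the TATA box), none of which overlapped another in these windows. The Pomc window held 2 E-boxes, beginning 200 and 147 bases before the start, and a TATA box beginning 25 bases before it. The Tbx19 window held 1 E-box, beginning 66 bases before the start. Over 32817 windows of this length, 66.2% held CANNTG and 12.4% held TATAAA, while TCACAC was in 12.3%, TAATCC in 6.25% and AAAGGTCA in 1.34%. A match is a description of letters, and the absence of a match says only that these letters are not in this window.

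Pax7 (ENSMUSG00000028736.13, GRCm38 chr4:139737062-139833528, minus strand), the paired-box factor of melanotropes, had 0 counts in 6 embryos and 7 counts, or 0.254 CPM, in embryo 5. Adults 1 and 2 had 86.7 and 95.1 CPM, from 3575 and 3383 counts. The adults were close to each other, and the embryo signal came from a single library. The fitted log2 fold change was 10.90 (SE 0.66, edgeR adjusted p = 7.3e-08). In DESeq2, an alternative fit, it was 11.29 with a far wider SE of 3.07. The edgeR value became 14.22 without embryo 5. With that embryo left out the others were all at 0, and the adult mean of 90.9 CPM was at least 414-fold higher than the highest floor of 3 counts in a library, 0.220 CPM.

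Neurod1 (ENSMUSG00000034701.9, GRCm38 chr2:79452521-79456751, minus strand), the basic helix-loop-helix partner of TBX19 in early corticotropes, had 2.03, 5.35 and 11.2 CPM in the lowest, median and highest embryo. Adults 1 and 2 had 12.3 and 9.17 CPM. The groups overlapped, since embryo 7 lay between the adults. The log2 fold change of 0.93 (SE 0.47) did not pass the test (edgeR adjusted p = 0.111), and without embryo 7 it was 1.19 with an adjusted p of 0.0276, still under the fold threshold. Of its 2729 exonic bases, 201 are shared with Cerkl on the same strand, where read pairs are ambiguous and left uncounted, so its level is uncertain to that extent.

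Crhr1 (ENSMUSG00000018634.10, GRCm38 chr11:104132855-104175523, plus strand) encodes the CRH receptor of corticotropes. The embryos had 0.353 CPM at the lowest, 0.777 at the median and 1.90 at the highest. Adults 1 and 2 had 26.1 and 29.7 CPM. Every embryo had at least 5 counts, so the transcript was detected in all 7, yet far under both adults. The log2 fold change was 4.97 (SE 0.46, edgeR adjusted p = 2.1e-06), from means of 0.893 ± 0.546 CPM (SD, n = 7) and 27.9 ± 2.57 CPM (SD, n = 2).

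Avpr1b (ENSMUSG00000026432.7, GRCm38 chr1:131599239-131612000, plus strand), the vasopressin receptor of corticotropes, had 0 CPM in the lowest, 0.0812 CPM in the median and 0.733 CPM in the highest embryo. Adults 1 and 2 had 10.7 and 26.7 CPM. It had 0 counts in embryos 2, 4 and 6 and most counts in embryos 1 and 7, with 10 and 15. The log2 fold change was 6.50 (SE 0.87, edgeR adjusted p = 4.6e-05), and it was 5.69 without adult 2. Its SE was the largest among the 6 genes in edgeR. In DESeq2 the largest was that of Pax7, at 3.07, against 1.78 for Avpr1b.

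Set in order per kilobase of exon, the embryo levels ran from Pomc (177 CPM per kb) through Tbx19 (3.57), Neurod1 (2.07), Crhr1 (0.363) and Avpr1b (0.0524) to Pax7 (0.00618). Only the step from Pomc to Tbx19 separated the embryo ranges entirely. Tbx19 exceeded Neurod1 per kilobase in 6 of 7 embryos, although their ranges overlapped. In the adults the order was Pomc (33745 CPM per kb), Tbx19 (55.9), Pax7 (15.5), Crhr1 (11.4), Avpr1b (4.65) and Neurod1 (3.94). Pax7, last in the embryos, stood above Crhr1 in the adults, and Avpr1b and Neurod1, whose adult ranges overlapped, could not be ordered. Relative to their means, the embryos varied by 34.0% for Tbx19, 48.0% for Pomc, 50.5% for Neurod1 and 61.2% for Crhr1 (SD over mean). They varied most for Avpr1b (136.4%) and Pax7 (264.6%), which had 0 counts in several embryos.

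Ratios between genes of the same library do not depend on scaling between libraries. The ratio of Pomc to Tbx19 counts was 12.4, 21.7 and 27.4 in the lowest, median and highest embryo. It was 189 and 289 in adults 1 and 2, so Pomc differed between the stages by more than Tbx19 did, by 3.57 on the log2 scale. Pax7 over Tbx19 was also higher in both adults than in any embryo, at 0.608 and 0.444 against at most 0.0194. With Pax7 at 0 in 6 embryos, the size of this difference depends on the pseudocount, being 7.38 on the log2 scale with 0.5, 9.38 with 0.1 and 4.47 with 5. Neurod1 over Tbx19 went the other way, with 0.0865 and 0.0429 in the adults and 0.182 to 1.14 in the embryos.

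For these 3 ratios an exact two-sided permutation test over 36 assignments of the 9 libraries gave p = 0.0278, the smallest it can give, and an adjusted p of 0.0417 over the 6 ratios tested. Unstranded counts left this exact p unchanged but gave an adjusted p of 0.0556 in the exact test, so the 3 ratios did not pass. Crhr1 over Tbx19 (difference 1.12 on the log2 scale) and Avpr1b over Tbx19 (3.35) were higher in both adults than in every embryo, but did not pass (exact permutation p = 0.0556, adjusted p = 0.0556). Without embryos 1 and 4 the adjusted p of the 3 ratios was 0.0714 in the exact test, where 21 assignments allow no p below 0.0476. With a single embryo left out, their exact p was 0.0357, the smallest of 28 assignments, and adjustment over the 6 ratios set the outcome. The adjusted p in the exact test was 0.0536 without embryo 2, 4, 5, 6 or 7, but 0.0357 without embryo 1 and 0.0429 without embryo 3. Crhr1 over Tbx19 also passed without embryo 1 or 3, and Avpr1b over Tbx19 without embryo 1. The difference of the latter also depends on the pseudocount, being 4.41 with 0.1 and 1.51 with 5, where it passed.

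**Figure D2:**
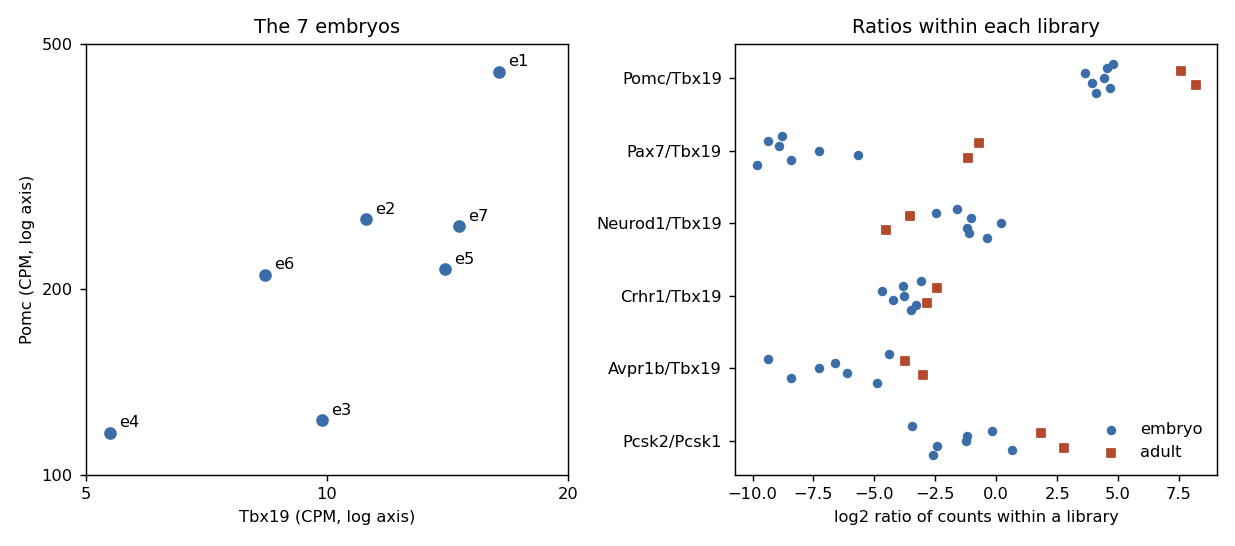
Left, Pomc against Tbx19 in CPM (both axes logarithmic) in the 7 embryos, labelled e1 to e7. Right, log2 ratio of the counts of gene pairs within each library, with embryos as circles and adults as squares: Pomc/Tbx19 is higher and Neurod1/Tbx19 lower in both adults than in any embryo.

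Across the 7 embryos, Pomc and Tbx19 had a Pearson r of 0.79 (exact permutation p = 0.0403, adjusted p = 0.121 over 3 relations) and a Spearman rho of 0.86 (exact permutation p = 0.0238, adjusted p = 0.0714). After adjustment the relation did not pass. Embryos 1 and 4, the libraries that stood apart, had the highest and lowest level of both genes, and without them r was 0.43 (exact permutation p = 0.525). Without embryo 3 it was 0.86 and passed (exact permutation adjusted p = 0.0417), so the outcome depends on single embryos. No relation of Neurod1 with either gene passed. Its r was -0.05 with Pomc (rho -0.18, exact permutation p = 0.929 and 0.713, adjusted 0.929 and 0.713) and 0.19 with Tbx19 (rho 0.21, exact permutation p = 0.683 and 0.662, adjusted 0.929 and 0.713). Without embryos 2 and 7, the farthest in Neurod1, these r were -0.09 and 0.05, and without embryos 1 and 4 they were -0.01 and 0.60 (exact permutation p = 0.992 and 0.30).

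Among the 12744 genes whose counts averaged 100 or more, those most like Pomc across the 7 embryos by Pearson r of log2 CPM were Gm5124 (0.98), Tceal5 (0.97) and Adamtsl1 (0.97). Those most like Tbx19 were Trappc6b (0.97), Zbtb7c (0.96) and Kctd9 (0.95), and those most like Neurod1 were Lmo7 (0.99), Stim2 (0.98) and Slc39a8 (0.98). Across all 9 libraries, where the stages dominate, the closest to Pomc were Crhr1, Sema3e and Phex, each at an r of 0.99. With so few libraries and so many genes these are descriptions without a test.

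The convertases and other proteins that process POMC were listed as Pcsk1, Pcsk2, Cpe, Pam, Scg5, Pcsk1n, Prcp and Ctsl. Of these 8 tested genes, 6 were called, each higher in the adult, beside 14.6% of all genes tested. The median of the list was a log2 fold change of 3.77, against 0.04 over all genes tested. Pcsk2, the convertase that cuts ACTH further in melanotropes, had the smallest adjusted p. It ranged from 1.17 to 10.0 CPM in the embryos (median 4.08), and adults 1 and 2 had 915 and 1683 CPM (log2 fold change 8.01, SE 0.54, edgeR adjusted p = 1.7e-07). Pcsk1, which releases ACTH, had 5.30 to 25.03 CPM in the embryos (median 13.3), while the adults had 258 and 244 CPM (4.28, SE 0.40, edgeR adjusted p = 2.5e-06). For both genes every embryo lay under both adults.

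The balance between both convertases therefore differed by stage. The count ratio Pcsk2/Pcsk1 was 0.0909 to 1.59 in the embryos, with embryos 1 and 6 at the ends, and 3.55 and 6.89 in the adults (exact two-sided permutation p = 0.0278, adjusted p = 0.0417). Unstranded counts gave an adjusted p of 0.0833 in the exact test for this ratio, and the left-out embryos named above moved it past the threshold in the same way. Scg5, the chaperone of PCSK2, and Cpe, which trims basic residues, were the most abundant of the list per kilobase at both stages, with means of 89.5 and 52.2 CPM per kb in the embryos, against 729 and 519 in adult tissue. Prcp, a carboxypeptidase that can inactivate alpha-MSH, had 23.3 to 54.9 CPM in the embryos (median 49.98). The adults, at 12.1 and 12.9 CPM, lay under all of them, a difference under the fold threshold (log2 fold change -1.76, edgeR adjusted p = 0.0018).

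Genes associated with melanotropes include, beside Pax7 and Pcsk2, Oacyl and Drd2. Oacyl, named for its similarity to acyltransferases, had 0.220 to 1.02 CPM in the embryos (median 0.674), while adults 1 and 2 had 865 and 1247 CPM (log2 fold change 10.80, SE 0.44, edgeR adjusted p = 3.3e-09). Drd2, the dopamine receptor through which the hypothalamus restrains melanotropes and lactotropes, had 0 to 0.693 CPM in the embryos (median 0.193), while the adults had 177 and 209 CPM (9.17, SE 0.48, edgeR adjusted p = 2.0e-08). Neither gene overlapped between the stages.

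**Figure D3:**
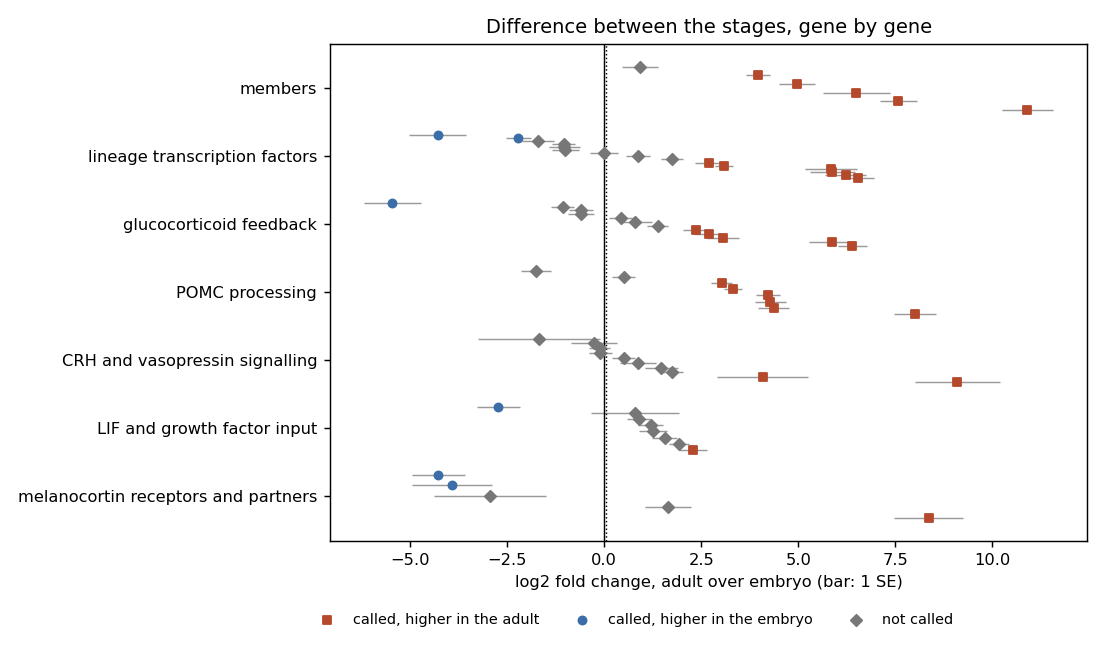
Log2 fold change, adult over embryo, with its SE for each tested gene of the members and of 6 lists, coloured by whether the gene was called. The solid line is 0 and the dotted line the median of all tested genes, 0.04. Of 8 POMC processing genes, 6 lie to the right and were called, beside 14.6% of all genes tested.

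Of 16 listed transcription factors of the lineage, 15 were tested, 6 were called higher in the adult and 2 higher in the embryo, beside 14.6% and 11.3% of all genes tested, with a median log2 fold change of 0.86. Nr4a1, an orphan nuclear receptor that acts on the Pomc promoter downstream of CRH, had the smallest adjusted p among those higher in the adult. It had 1.95 to 4.78 CPM in the embryos (median 4.25), with adult 1 at 130 CPM and adult 2 at 561 CPM (log2 fold change 6.53, SE 0.42, edgeR adjusted p = 1.1e-07). Hes1, a Notch target, was higher in the embryo, at 46.9 to 73.7 CPM (median 56.2) against 15.8 and 9.28 CPM (log2 fold change -2.21, SE 0.33, edgeR adjusted p = 1.1e-04). Neither overlapped between the stages.

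Homeodomain factors that precede these lineages differed in level and in stage. Pitx1 and Lhx3 were the most abundant of the list per kilobase in the embryos, with 149 and 73.6 CPM per kb against 45.8 and 36.8 in the adults. Neither was called. For Pitx1, with 240.4, 457 and 541 CPM in the lowest, median and highest embryo and 134 and 109 CPM in the adults, the log2 fold change was -1.70. Lhx4 was lower, at 4.21 CPM per kb in the embryos, and was called. It had 5.37, 24.7 and 42.2 CPM in the lowest, median and highest embryo, all above the 1.09 and 1.38 CPM of the adults (log2 fold change -4.29, SE 0.73, edgeR adjusted p = 2.9e-04).

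The CRH and vasopressin list held ligands, further receptors and signal transducers. Of 16 genes, 10 passed the filter on low counts and 2 were called, each higher in the adult, beside 14.6% of all genes tested. The median log2 fold change of the list was 0.69. The ligand gene Crh was at 0 in both adults and reached 0.0362 CPM in a single embryo, below its floor. Avp was at 0 in all 7 embryos and at 1.75 and 3.43 CPM in adults 1 and 2, so its adult mean was at least 11.8-fold higher than the highest embryo floor of 3 counts in a library (edgeR adjusted p = 2.3e-04). Oxt, like Avp a marker of the posterior lobe in the lists used here, was also called higher in the adult, with 4 counts in embryo 6, 0 in the other embryos, and 1.58 and 1.69 CPM in adults 1 and 2 (edgeR adjusted p = 9.8e-04). The other called gene of the list, Crhbp, which encodes a CRH-binding protein, had 3.18 CPM in adult 1 but 0.281 CPM in adult 2, under the 0.439 CPM of embryo 2. Its stages thus overlapped although it was called. Gnas and Prkar1a, which encode the stimulatory G protein and a regulatory subunit of protein kinase A, were the most abundant per kilobase at both stages. Gnas had 1690.1 to 2678 CPM in the embryos (median 2088), and both adults were above them at 6746 and 7073 CPM, yet under the fold threshold (log2 fold change 1.75, edgeR adjusted p = 1.7e-04).

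Of the 12 genes for glucocorticoid feedback, all tested, 5 were called higher in the adult and 1 higher in the embryo. The shares over all genes tested were 14.6% and 11.3%, and the median log2 fold change of the list was 1.09. Rasd1, a small G protein induced by glucocorticoids, had 0.545 to 2.37 CPM in the embryos (median 1.48), while the adults had 93.0 and 129 CPM (log2 fold change 6.39, SE 0.37, edgeR adjusted p = 5.0e-08). The glucocorticoid receptor gene Nr3c1 had 8.65 to 31.0 CPM in the embryos (median 19.3), while the adults had 111 and 137 CPM (2.69, SE 0.37, edgeR adjusted p = 6.1e-05). The enzymes that make and break down active glucocorticoid were called in opposite directions. Hsd11b1, which regenerates it, had 0 to 0.842 CPM in the embryos (median 0.293), and the adults had 15.8 and 22.4 CPM (log2 fold change 5.88, SE 0.60, edgeR adjusted p = 4.7e-06). Hsd11b2, which inactivates it, had 6.05 to 16.4 CPM in the embryos (median 6.88), and the adults had 0.0727 and 0.309 CPM (-5.45, SE 0.72, edgeR adjusted p = 4.4e-05). The stages did not overlap for any of these 4 genes. Hdac2 and Smarca4, chromatin proteins that the receptor uses to repress Pomc, were the most abundant per kilobase in the embryos (31.5 and 31.2 CPM per kb). By the mean of the adults these were Rasd1 and Per1 (69.0 and 20.8). The place of Per1 rested on adult 2, at 31.5 CPM per kb. In adult 1 Per1 had 10.2, below Hdac2 (21.9) and Smarca4 (21.7).

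Of the 8 genes for LIF and growth factor input, all tested, 1 was called in each direction, near the 14.6% and 11.3% of all genes tested. Stat3, which carries the LIF signal, was higher in the adult (13.8 to 45.1 CPM, median 31.7, against 122 and 154 CPM; log2 fold change 2.30, SE 0.36, edgeR adjusted p = 1.7e-04). Bmp4, a growth factor, was higher in the embryo (4.22 to 14.2 CPM, median 10.2, against 1.53 and 1.38 CPM; -2.73, SE 0.56, edgeR adjusted p = 0.0011). Neither overlapped between the stages. The median log2 fold change of the list was 1.22. Il6st, the shared receptor subunit of LIF and IL-6, was the most abundant per kilobase, at 8.91 CPM per kb in the embryos and 26.2 in the adults.

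The melanocortin receptors, through which POMC peptides act, were low at both stages. Of 9 listed genes 8 were matched by symbol, Asip not, and 5 were tested (median log2 fold change -2.93). Of these, 1 was called higher in the adult and 2 higher in the embryo, beside 14.6% and 11.3% of all genes tested. Mc3r had 2.33 and 4.98 CPM in the adults and 0 counts in every embryo except embryo 6, which had 1 (edgeR adjusted p = 6.7e-06). Mc4r had 1.83 to 2.75 CPM in the embryos (median 2.33), and both adults were lower at 0.145 and 0.0843 CPM (log2 fold change -4.28, SE 0.68, edgeR adjusted p = 1.9e-04). Mrap2, an accessory protein of these receptors, was the most abundant per kilobase at both stages, at 1.47 and 4.65 CPM per kb.

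The adults also differed from each other. Adult 2 had 2.29-fold more Pomc and 2.50-fold more Avpr1b than adult 1, and Tbx19 was also higher in adult 2, by 0.59 on the log2 scale. Pax7 (1.10-fold) and Crhr1 (1.14-fold) were near equal, and Neurod1 was 1.34-fold higher in adult 1. With 1 library on each side there is no replicate check and no test. Over the 13001 tested genes with at least 100 counts in both adults, the log2 ratio of adult 2 over adult 1 had a median of -0.03 and lay between -0.49 and 0.50 from the 5th to the 95th percentile. The log2 ratios of Pomc, 1.20 (95% exact interval for counting error 1.19 to 1.20), and Avpr1b, 1.32 (1.16 to 1.49), exceeded those of 99.3% and 99.5% of these genes, and Tbx19, at 0.59, exceeded 96.3%.

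Several listed genes outside the members were further apart. Nr4a1, Nr4a2 and Nr4a3 were 4.31-, 6.69- and 5.76-fold higher in adult 2, at 561, 327 and 53.1 CPM against 130, 48.8 and 9.21 CPM. Per1, a clock gene of the glucocorticoid feedback list, was 3.09-fold higher in adult 2. The rest of that list did not share a difference of this size. Sgk1 was 1.64-fold higher in adult 1, while Fkbp5 (1.14-fold) and Tsc22d3 (1.12-fold) were nearly equal. In that list, 11 genes had at least 100 counts in both adults. Among them 8 were higher in adult 2, with a median log2 ratio of 0.24 over the 11. Of the genes associated with melanotropes, Pcsk2 (1.84-fold) and Oacyl (1.44-fold) were higher in adult 2, and Drd2 was nearly equal (1.18-fold). Hormone genes of other cell types also differed, since Prl was 2.11-fold and Fshb 3.61-fold higher in adult 1 and Tshb was 1.92-fold higher in adult 2, while Gh was nearly equal (1.19-fold). The part of sex, which is not given per animal, or of cell type composition in these ratios was not tested.

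**Figure D4:**
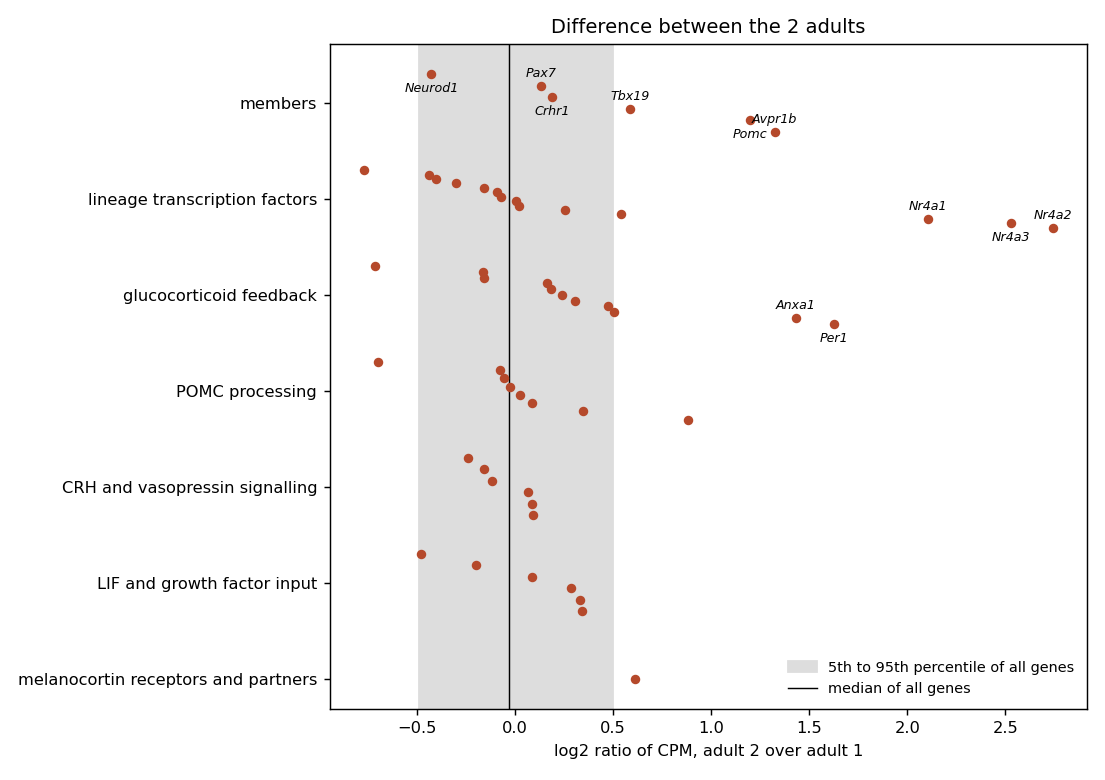
Log2 ratio of CPM, adult 2 over adult 1, for the listed genes with at least 100 counts in both adults (points, by list), beside the median (line) and the 5th to 95th percentile (grey) of all such genes. Pomc, Avpr1b, Tbx19, Per1, Anxa1 and the Nr4a genes are among those to the right of the grey band.

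Markers of other cell types give the setting of these levels. In the adults, Gh, Prl and Cga led the somatotrope, lactotrope and gonadotrope lists, whose summed levels were 53700 and 64048, 62262 and 29482, and 9813 and 4550 CPM in adults 1 and 2. The thyrotrope list, which shares Cga with the gonadotrope list, summed to 8073 and 4305 CPM. In the embryos Gh and Prl averaged 0.539 and 0.244 CPM per kb, below Pomc at 177 CPM per kb. Tshb, at 47.1 CPM per kb, was also below Pomc on average, whereas Cga, at 907 CPM per kb, was above it.

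Hypothalamic tissue adjoins the pouch and also holds cells that transcribe Pomc. Of 10 markers of hypothalamus and posterior lobe, 6 were called higher in the embryo, beside 11.3% of all genes tested. Avp and Oxt, 2 of the 10, were called higher in the adult, beside 14.6%. Their summed levels in embryos 1 to 7 were 63.9, 192, 93.0, 64.8, 98.0, 108 and 105 CPM, led by Rax, against 34.2 and 43.0 CPM in adults 1 and 2, led by Col25a1. Prdm12, a factor of hypothalamic POMC neurons, had 0 counts in both adults and in embryo 1, and was highest in embryo 2 at 1.39 CPM. Sim1, another marker of the list, was highest in embryo 1 at 2.42 CPM. Avp was at 0 in every embryo, and Agrp reached at most 1.96 CPM, also in embryo 2. The part of such tissue in the embryo Pomc levels was not tested.

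**Figure D5:**
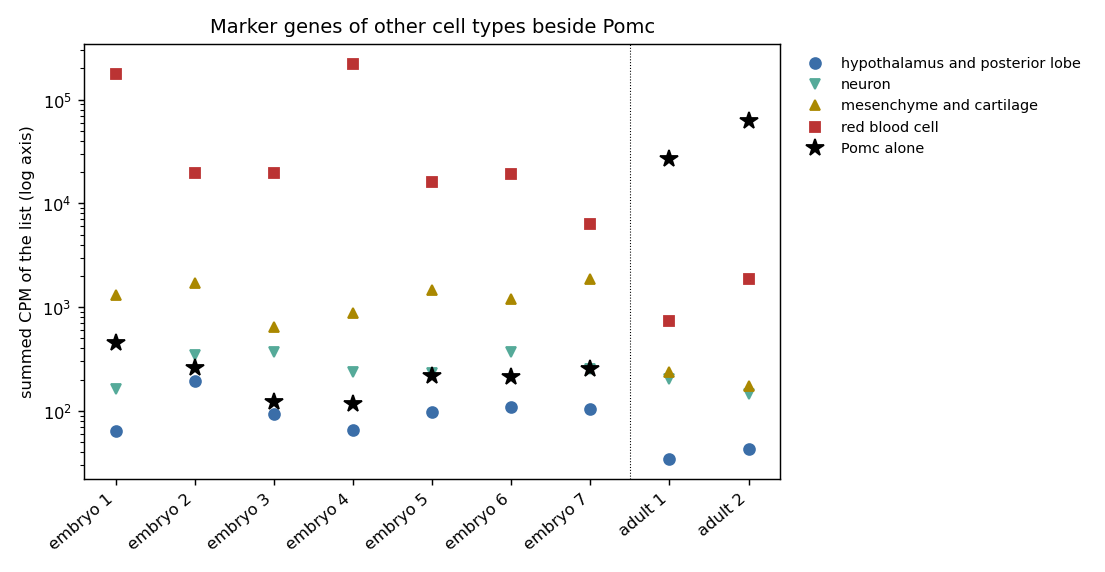
Summed CPM (logarithmic axis) of marker lists for 4 other cell types and tissues in each library, beside Pomc alone (stars). Red blood cell genes are highest in embryos 1 and 4, hypothalamic markers in embryo 2, and Pomc in the adults.

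The called counts of the remaining lists were not tested against each other or against all genes. Of all genes tested, 14.6% were called higher in the adult and 11.3% higher in the embryo. The 6 red blood cell genes were all called higher in the embryo, summing to 6324 CPM in embryo 7, 177041 in embryo 1 and 221486 in embryo 4, where Hbb-y led, and to 729 and 1876 CPM in the adults. Of the 6 genes for mesenchyme and cartilage 5 were called higher in the embryo and 1 in the adult (649 to 1868 CPM summed in the embryos, 236 and 174 CPM in the adults, led by Col3a1). Neuronal genes, of which 6 of 8 were tested and not called, summed to 163 to 369 CPM in the embryos and to 204 and 145 CPM in the adults, led by Nefl and Tubb3. Sensory ganglion genes summed to at most 13.3 CPM, with Isl2 the most abundant and Tlx3 at 0 in both adults. Of 4 endothelial genes 1 was called higher in the embryo (110 to 399 CPM against 106 and 63.7 CPM), and of 5 macrophage genes 1 was called higher in the adult (102 to 244 CPM against 77.5 and 119 CPM). Their part in the stage differences of the 6 genes was not tested.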

How the data were processed

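RNA was measured in 7 embryo and 2 adult libraries, grouped by the sample labels. Per the submitters' notes, the authors trimmed reads with Trimmomatic 0.39 and aligned them with STAR 2.7.5b, and they deposited unnormalised gene counts, in read pairs, for each library. The strand-specific count was used. All 55450 identifiers were found in the GENCODE annotation, which gave symbols, positions and exon lengths. The members and lists were chosen with earlier results of these data known. Named genes are the members, and for each list those with the smallest adjusted p in each direction and the 2 most abundant per length. The text leaves out some genes that this rule takes, and any other gene was named after its values were seen.

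Counts were scaled by TMM in edgeR 4.0.16 (R 4.3.3), and the 19371 genes that averaged 5 or more counts were fitted by the quasi-likelihood test with stage as the only term and Benjamini-Hochberg adjustment. Each SE printed from edgeR is the absolute log2 fold change divided by the square root of the F statistic of its test. The fitting code was tested on simulated data. Ratios used a pseudocount of 0.5, correlations log2(CPM + 0.5). Alternatives were DESeq2 1.42.0, other scalings, filters, thresholds, pseudocounts and strand settings, a length and GC correction (splines with 4 degrees of freedom), a replicate block and left-out libraries. No 2 libraries held identical counts. Ratios, correlations and intervals were computed in Python 3.11.15 with scipy 1.17.1.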

Additional observations from a re-analysis of the deposited data

Results flagged for a closer look

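Pomc in embryo 1, at 451 CPM, lay far from the other 6 embryos, the gap to the nearest being 0.572 of the whole range against a critical value of 0.568 for 7 libraries. Embryo 1 is also the library with the lowest share of read pairs on genes. Without it the log2 fold change of Pomc was 7.77. As a share of gene counts, without TMM scaling, Pomc was 0.0368% in embryo 1 and 0.0307% in embryo 7, the next highest embryo. For a single gene, chance alone sets a value apart in this way in about 5% of groups if values are normally distributed. The check used CPM without a log, so this rate is only a rough guide, and a log scale was not tried. Each of the 6 genes was checked, so chance flags at least 1 of them more often than it flags a single gene.

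Pax7 in embryo 5, at 0.254 CPM, was the single embryo value above 0. With the other 6 embryos at 0, any value above 0 would stand apart, so that rate does not apply here.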

How the results depend on the processing

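Across the alternatives, 5 members stayed called higher in the adult and Neurod1 stayed uncalled. Leaving out each library in turn gave log2 fold changes of 6.87 to 8.07 for Pomc, 3.65 to 4.25 for Tbx19, 10.62 to 14.22 for Pax7, 4.78 to 5.18 for Crhr1, 5.69 to 7.02 for Avpr1b and 0.72 to 1.19 for Neurod1; a lone adult is then assumed to vary like the embryos. Without embryos 1 and 4 they were 7.69 for Pomc, 3.91 for Tbx19, 10.62 for Pax7, 5.09 for Crhr1, 6.81 for Avpr1b and 0.90 for Neurod1. Library size alone shifted the median of all genes by 0.21. A fold threshold of 2 gave 4805 genes higher in the adult and 4155 higher in the embryo, and no fold threshold 5298 and 4650, as looser thresholds must.

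Embryos and adults share only replicate numbers. With the replicate block, 2440 genes were higher in the adult and 1796 higher in the embryo, and the deviations of embryo 1 and adult 1 correlated at 0.03. The block gave Neurod1 a log2 fold change of 1.69 and Pax7 14.25 and changed no member's call.

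For the ratios, unstranded counts gave differences of 3.57 (Pomc/Tbx19), 7.40 (Pax7/Tbx19), -2.98 (Neurod1/Tbx19) and 4.03 (Pcsk2/Pcsk1), and leaving out embryos 1 and 4 gave 3.70, 7.50, -2.80 and 3.45. None of these passed, with exact permutation adjusted p from 0.0556 to 0.0833, fewer embryos allowing fewer assignments in the second case. In the first, the exact p of these 3 ratios to Tbx19 stayed at 0.0278, and that of Pcsk2/Pcsk1 became 0.0833, which raised the adjusted p of the others; why it did was not tested. A pseudocount of 5 let Avpr1b/Tbx19 pass at 1.51, and pseudocounts of 0.1 and 5 gave 9.38 and 4.47 for Pax7/Tbx19, which passed with both. Leaving out each embryo in turn gave 3.46 to 3.65, 7.13 to 7.82, -3.18 to -2.74 and 3.47 to 4.16 for the same 4 ratios, 0.97 to 1.24 for Crhr1/Tbx19 and 2.91 to 3.74 for Avpr1b/Tbx19. The last 2 passed without embryo 1, and Crhr1/Tbx19 also without embryo 3.

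The r of Pomc with Tbx19 was 0.84 with library size alone (adjusted p = 0.0476) and 0.67 to 0.86 with each embryo left out, passing without embryo 3 (exact permutation). Pomc with Neurod1 turned to 0.15 with library size alone and ranged from -0.24 to 0.14 with an embryo left out, and Tbx19 with Neurod1 from -0.0764 to 0.525; the cause was not tested. The adult 2 over adult 1 log2 ratio of Pomc was 1.21 with DESeq2 size factors or library size alone and 1.20 with unstranded counts. Depth limits Pax7 and Avpr1b in the embryos, where most libraries had few or 0 counts.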

Other observations

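Read pairs on the strand opposite to the members were few. For Pomc they numbered 1365 and 2926 in adults 1 and 2, or 0.122% and 0.133% of the counts on both strands, and 40 over all embryos. For Pax7 the shares were higher, at 0.529% and 1.02%, from 19 and 35 read pairs. For Neurod1, 154 exonic bases overlap Gm26755 on the opposite strand, and 0 antisense read pairs were counted in the adults.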
